A study of Mus musculus with 18 samples.

Results

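The genes described here are 10 clustered zinc finger genes on mouse chromosome 2, most of them near copies of each other: Gm14393, Gm14391, Gm14440, Gm4724, Gm14306, Gm14288, Gm6710, 0610010B08Rik, Gm14434 and Gm14308. They were chosen because their RNA signal was lower in p110g-/- macrophages than in wild type (WT) macrophages. They are 10 of the 16474 genes in the deposited table. Testing required 3 or more libraries at a value of 10 or higher, which 15627 genes met, all 10 members among them. Bone marrow of C57BL/6 mice aged 8 weeks was turned into macrophages by culture over 6 days with the growth factor M-CSF (50 ng/ml). The p110g-/- mice lack, by their label, the catalytic subunit of phosphoinositide 3-kinase gamma, the product of Pik3cg. Every group then had M-CSF at 20 ng/ml. One arm of each genotype had nothing else and was taken at 24 h, another was also given IFNg (interferon gamma) plus LPS (lipopolysaccharide, 100 ng/ml) and taken at 24 h, and the last was also given IL-4 (20 ng/ml) and taken at 48 h. There were thus 6 groups, of 3 numbered libraries each. The labels used here give neither the design of the deletion nor its breeding history. Nothing in them ties a library to a mouse, so p-values here reflect variation among libraries that may be technical.

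Zinc finger genes of this kind belong to a large mouse family whose proteins bind DNA through tandem C2H2 fingers. Many of them carry a KRAB domain, through which the corepressor Trim28 and the histone H3 lysine 9 methyltransferase Setdb1 are recruited to silence chromatin, retrotransposons in particular. Such genes often lie in clusters of recent duplicates, and clusters of this kind are known to differ in content between mouse strains. Of the members, the RefSeq gene table names only Gm14306 as a zinc finger protein, under the symbol Zfp965, and it lists 0610010B08Rik as Gm2026. The roles of the individual genes are not given in the sources used here, and their domains were not checked.

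Recovered read totals were 40.1 to 69.6 M (1e6) per library, and 128 to 307 genes per library were at 0. A count of 0 allows up to 3 reads, a normalised signal of 2.15 to 4.74 depending on the library, and this covers counting error only. The 10 macrophage markers listed, among them Csf1r with signals of 46925.7 to 122648.7 and Emr1 with 43630.7 to 173970.4, were present in every library. In M-CSF, Pik3cg stood at 5307.5, 5330.3 and 4993.5 in WT libraries and at 1887.5, 2045.8 and 1965.8 in p110g-/- libraries. In IL-4 its signals were 3068.2, 2952.9 and 3280.5 in WT and 955.6, 1083.3 and 964.8 in p110g-/-. In IFNg/LPS the library labelled p110g-/- number 1 held 3691.4, above the WT libraries at 3559.5, 2309.0 and 2604.2, whereas p110g-/- numbers 2 and 3 held 1410.5 and 2036.7. This library therefore went against its label for the targeted gene. Number 1 was also the highest WT library for Pik3cg in IFNg/LPS. Over all genes tested, deviations from the group mean correlated at 0.546 between the WT and p110g-/- libraries numbered 1 (0.34 for number 2, 0.256 for number 3). What the libraries numbered 1 have in common was not tested. The IFNg/LPS counts and calls of p110g-/- that rest on p110g-/- number 1 are also given without it, a listing chosen after the data were seen.

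The members share promoter sequence, which is printed here because it separates the cluster from almost all other mouse genes. RefSeq promoter windows of build GRCm38.p6, from 250 bases before to 50 bases after the gene start, were found for all 10 members. The deposited data were made on mm9, so these positions were used for sequence only. The windows of Gm4724, 0610010B08Rik, Gm14434 and Gm14308 were identical over all 300 bases. Those of Gm14440 and Gm14288 shared an unbroken run of 299 bases, and those of Gm14391 and Gm6710 a run of 293 bases. Gm14393 shared no run longer than 17 bases with any other member. The window of Gm14434 (chr2:176486700-176486999, minus strand), of Gm14440 (chr2:175274875-175275174, plus strand), of Gm14391 (chr2:175206875-175207174, minus strand) and of Gm14393 (chr2:175067720-175068019, minus strand) follow. They stand for the 4 sequence groups, and capitals mark the 54-base run shared by every member except Gm14393, or in Gm14393 the 17-base run shared by all 10.
Gm14434: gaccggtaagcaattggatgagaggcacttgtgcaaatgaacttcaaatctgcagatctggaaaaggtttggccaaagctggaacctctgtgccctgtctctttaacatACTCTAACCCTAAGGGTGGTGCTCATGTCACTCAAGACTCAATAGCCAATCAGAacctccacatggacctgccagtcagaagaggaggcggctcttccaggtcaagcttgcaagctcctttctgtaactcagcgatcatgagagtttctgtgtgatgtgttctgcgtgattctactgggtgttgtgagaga
Gm14440: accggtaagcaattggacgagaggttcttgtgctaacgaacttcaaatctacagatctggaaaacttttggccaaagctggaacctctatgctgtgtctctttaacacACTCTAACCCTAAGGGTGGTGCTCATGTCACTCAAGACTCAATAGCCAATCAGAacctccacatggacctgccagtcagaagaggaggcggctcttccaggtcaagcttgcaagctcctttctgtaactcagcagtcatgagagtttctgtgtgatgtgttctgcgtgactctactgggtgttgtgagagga
Gm14391: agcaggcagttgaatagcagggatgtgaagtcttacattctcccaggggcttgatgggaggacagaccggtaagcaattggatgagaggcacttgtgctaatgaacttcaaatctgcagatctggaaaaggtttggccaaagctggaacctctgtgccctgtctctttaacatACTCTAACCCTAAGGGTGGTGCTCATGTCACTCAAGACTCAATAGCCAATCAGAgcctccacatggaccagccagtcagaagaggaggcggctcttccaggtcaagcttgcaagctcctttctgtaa
Gm14393: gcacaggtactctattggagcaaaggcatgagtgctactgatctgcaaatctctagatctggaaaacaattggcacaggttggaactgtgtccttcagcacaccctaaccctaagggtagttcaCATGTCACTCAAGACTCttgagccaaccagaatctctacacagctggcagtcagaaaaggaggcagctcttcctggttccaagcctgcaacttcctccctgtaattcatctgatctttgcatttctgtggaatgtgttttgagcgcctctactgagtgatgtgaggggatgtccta

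The 17-base run CATGTCACTCAAGACTC, searched on both strands, was found in 34 of 32817 RefSeq promoter windows (0.104%), all on chromosome 2 and belonging to 30 genes. The 54-base run contains it and was found in 30 windows (0.0914%) of 26 genes. Inside the 54-base run lies CCAAT. Searched on both strands, it was found somewhere in the window of all 10 members, in Gm14393 only as its reverse complement ATTGG. By the same search 37.4% of all windows also hold it. A match describes these letters only and shows neither a binding site nor a cause.

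Transcript sequence was shared as widely. Of the distinct 50-base stretches of the GENCODE transcripts, 100% in Gm14440, Gm14288 and Gm14434, 99.8% in Gm4724, 98.4% in 0610010B08Rik, 98.1% in Gm14308, 96.3% in Gm14306 and 92.1% in Gm6710 also occurred in at least 1 other gene. The share was 58.3% in Gm14393 and 35.8% in Gm14391, the member with the most sequence of its own. On this measure 4 groups formed. Gm4724, 0610010B08Rik, Gm14434 and Gm14308 shared most of their sequence with each other. Gm14391 and Gm6710 formed a pair, Gm14440 and Gm14288 were near copies to which Gm14306 was related, and Gm14393 stood alone. Sharing also ran across and beyond these groups. Of the stretches of Gm4724, 52.5% occurred in Gm6710 and 74.0% in Gm14305, which is not a member. Of those of Gm14306, 83.2% occurred in Zfp973, also not a member.

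**Figure D1:**
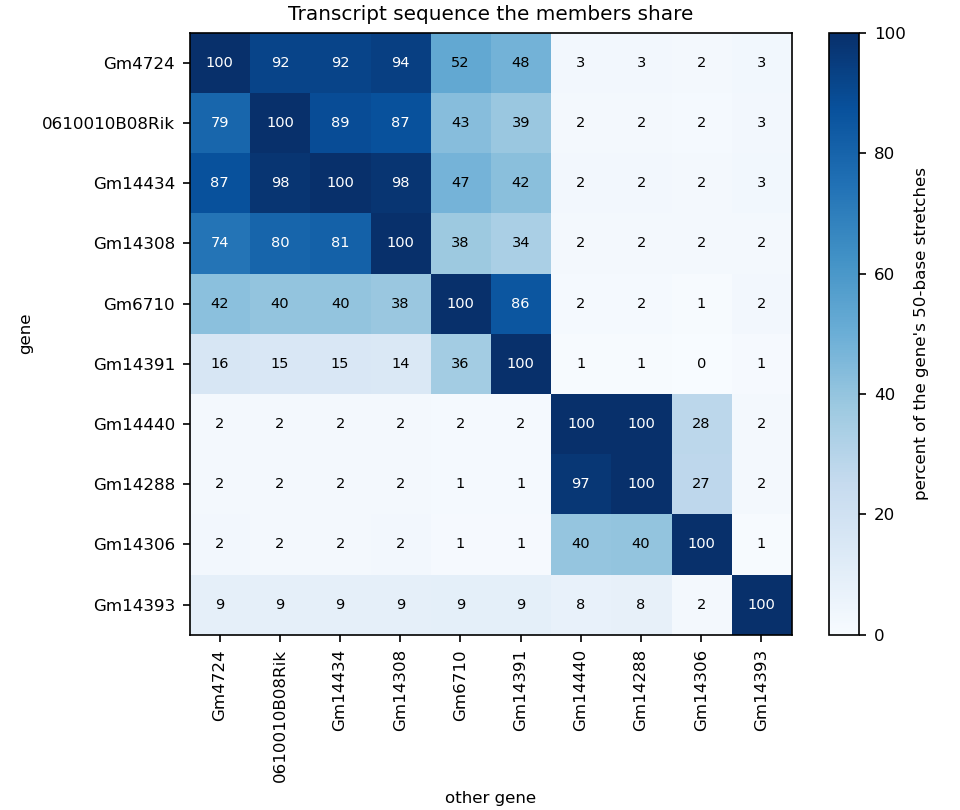
Percent of each gene's distinct 50-base transcript stretches (row) that also occur in another member (column), drawn from 0 to 100 percent. The block of Gm4724, 0610010B08Rik, Gm14434 and Gm14308 at upper left, the pair of Gm6710 and Gm14391, and Gm14440 with Gm14288 stand out, and Gm14393 shares little with any member.

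How reads that match several copies were counted is not given in the sources used here, so the signal of a member may hold reads of its copies. Gm4724, 0610010B08Rik and Gm14434 had nearly the same signal in each library: the highest of the 3 was 1.04 to 1.31 times the lowest, with a median of 1.11 over 18 libraries and no division by length. The fourth copy, Gm14308, was not equal to them, since their mean was 2.07 to 5.91 times its signal within a library. Gm14440 was 4.05 to 7.95 times Gm14288 in WT libraries and 5.96 to 15.4 times in p110g-/- libraries, although 100% of the 50-base stretches of Gm14440, to 3 digits, occurred in Gm14288. These ratios describe the deposited values and not relative transcript abundance, and the part of shared reads in any difference given here was not tested.

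The genotype difference chose the members, so it is described without a test. All 10 genes were lower in p110g-/- than in WT under each stimulus, with no overlap between the 3 p110g-/- and the 3 WT libraries. Of all tested genes, 10.9% in M-CSF, 14.8% in IFNg/LPS and 11.4% in IL-4 showed complete separation in that direction, and nothing is read from the members' count because the rule fixed it. The p110g-/- mean was 14.7% to 50.0% of the WT mean in M-CSF (median 29.7%), 9.85% to 44.4% in IFNg/LPS (median 34.1%) and 15.1% to 45.5% in IL-4 (median 29.1%). On the log2(signal + 1) scale the median difference over members was -1.72, -1.52 and -1.78, against medians of -0.001, 0.001 and -0.003 over all genes tested. In bulk RNA, fewer cells that transcribe these genes and less RNA per cell cannot be told apart. The part of shared reads or of strain DNA in the lower signal was not tested either.

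In M-CSF, Gm14440 had signals of 564.6, 594.1 and 636.5 in WT libraries and of 250.6, 338.8 and 307.8 in p110g-/- libraries. Its means there were 598.4 ± 36.1 and 299.1 ± 44.7 (SD, n = 3), so its p110g-/- level of 50.0% of WT was the mildest reduction among the members. In IFNg/LPS it stood at 304.1, 331.5 and 364.8 in WT and at 112.8, 118.6 and 142.3 in p110g-/-. The p110g-/- libraries of this gene in M-CSF and WT libraries in IFNg/LPS thus lay in a similar range, so that genotype and stimulus moved its level by amounts of the same order. In IL-4 the signals were 615.7, 637.0 and 630.1 in WT and 259.0, 334.3 and 263.2 in p110g-/-.

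Gm14393 showed the widest separation. Its WT signals were 43.8, 43.7 and 30.3 in M-CSF, 29.5, 22.4 and 53.7 in IFNg/LPS, and 39.0, 40.6 and 48.0 in IL-4. In p110g-/- it held 5.7, 8.7 and 2.9 in M-CSF, 4.7, 3.8 and 1.9 in IFNg/LPS, and 6.5, 5.8 and 6.9 in IL-4. These p110g-/- values come from 2 to 9 reads per library, against 20 to 57 reads in WT, so counting error is large and the log2 differences of -2.65, -2.98 and -2.55 are imprecise.

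Gm4724, one of the 4 genes with the same promoter window, had 312.7, 351.2 and 330.2 in the WT libraries of M-CSF and 81.6, 88.5 and 89.3 in those of p110g-/-. Under IL-4 its WT libraries held 306.5, 338.4 and 346.7 and its p110g-/- libraries 74.6, 120.2 and 90.3. The highest p110g-/- library of Gm4724 was below every WT library, including the WT IFNg/LPS libraries at 168.3, 209.1 and 225.8. Its copy 0610010B08Rik behaved alike, with M-CSF means of 343.7 ± 28.3 in WT and 86.3 ± 17.1 in p110g-/- (SD, n = 3). Gm14434 had 288.1, 344.2 and 334.5 in WT and 106.9, 96.2 and 92.2 in p110g-/- in M-CSF, and Gm14308 had 103.3 ± 6.99 and 23.8 ± 2.52. Summed over these 4 copies, the p110g-/- level was 26.8% of WT in M-CSF, 33.6% in IFNg/LPS and 28.4% in IL-4. The sum removes any division of reads between the 4, but not with genes outside them.

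Gm14391, with the least shared transcript sequence, had 285.8, 299.7 and 270.6 in WT and 125.3, 135.5 and 127.3 in p110g-/- when kept in M-CSF. In IFNg/LPS its WT libraries held 158.0, 188.6 and 247.9 and its p110g-/- libraries 62.8, 72.1 and 68.2. The genotypes did not overlap in either condition. Its partner Gm6710 had M-CSF means of 320.7 ± 21.8 in WT and 132.2 ± 15.7 in p110g-/- (SD, n = 3). Gm14306 had 80.3 ± 4.50 and 23.2 ± 1.22, and Gm14288 had 87.5 ± 8.66 and 27.4 ± 9.55, in the same groups. Summed over all 10 members, p110g-/- libraries held 36.3% of the WT mean in M-CSF, 34.9% in IFNg/LPS and 35.2% in IL-4.

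**Figure D2:**
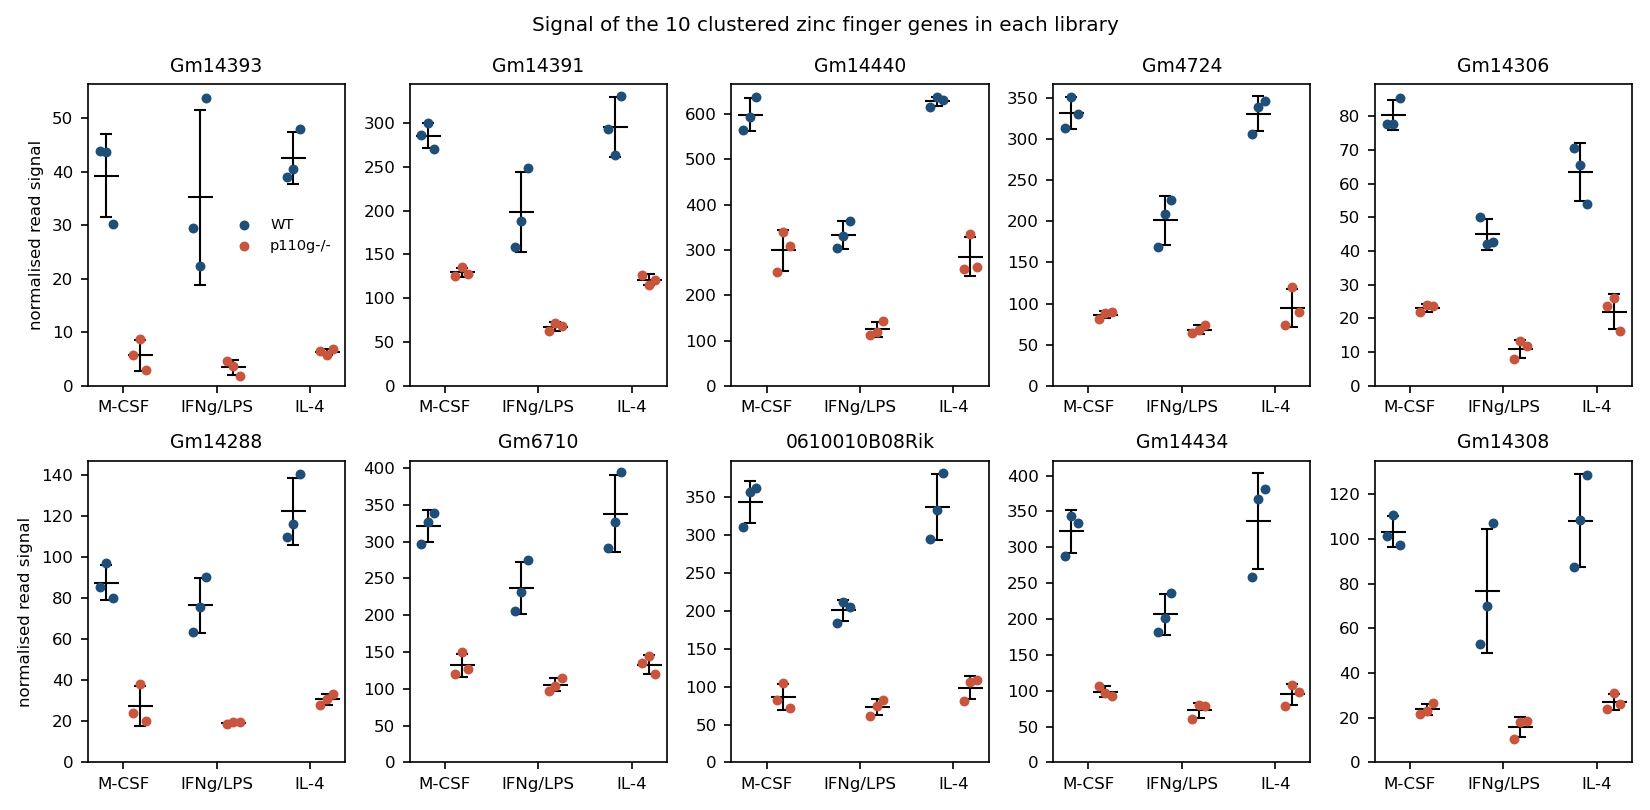
Normalised read signal (vertical axis, linear, from 0) of each member under 3 stimuli (horizontal axis) in WT (blue) and p110g-/- (red), 1 point per library, with bars for the mean ± SD of 3 libraries. In every panel the p110g-/- points of a stimulus lie below the WT points, and in most panels the IFNg/LPS points are below those of M-CSF and IL-4.

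The library labelled p110g-/- IFNg/LPS number 1, whose Pik3cg was at a WT level, lay below the WT libraries for the members. It held 112.8 for Gm14440, 64.0 for Gm4724, 62.8 for Gm14391 and 97.7 for Gm6710, which were 33.8%, 31.8%, 31.7% and 41.2% of the respective WT means. Without this library the p110g-/- members stood at 8.10% to 46.1% of WT in IFNg/LPS with a median of 35.3%. The values with and without this library also chose the members, so they do not bear on whether its label is right. H60a and Nnt, described below, are not members. In IFNg/LPS, H60a was at 2545.9 in this library, at 2576.0 and 2937.1 in p110g-/- numbers 2 and 3, and at 144.7, 134.5 and 132.7 in WT. Nnt was at 800.2 in this library, at 799.2 and 820.5 in p110g-/- numbers 2 and 3, and at 438.5, 685.3 and 371.1 in WT. Whether the label is right was not tested.

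The response to stimulus within a genotype was not the contrast that chose the members, though it uses the same libraries. It was tested with limma over all 15627 genes, with Benjamini-Hochberg adjustment at 0.05. IFNg/LPS for 24 h lowered most of the cluster. In WT, 7 of 10 members fell against M-CSF and none rose. The 7 differences lay between -0.84 and -0.44 on the log2(signal + 1) scale, and over all 10 members the median was -0.60 and the range -0.84 to -0.20. A fall was common in this comparison: 37.5% of all genes tested were lower, 36.3% higher and 73.8% changed in either direction, with a median of -0.006. The libraries of 7 members did not overlap, and 38.7% of all genes tested were separated in this direction. Gm14440 fell by 0.84 ± 0.13 (SE, 3 against 3 libraries, limma adjusted p = 2.2e-05), to 55.7% of its M-CSF level, and its IFNg/LPS libraries lay below all M-CSF libraries. Gm14306 fell to 56.0% (adjusted p = 0.0021 by limma), from signals of 77.6, 77.8 and 85.5 to 50.2, 42.0 and 42.6.

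The 3 members with nearly equal signal in every library also fell in WT. 0610010B08Rik fell to 58.4% of its M-CSF mean, Gm4724 to 60.7% and Gm14434 to 64.1%, with limma adjusted p of 0.00051, 0.00048 and 0.0029. These results may not be independent, since 79.2% to 97.9% of the 50-base stretches of each of the 3 occur in each of the others. Gm14391 fell to 69.4% (adjusted p = 0.0023 by limma) and Gm6710 to 74.0% (0.0098), and the latter missed the threshold without WT IFNg/LPS library 1 (adjusted p = 0.051 by limma, from 0.0037 to 0.051 over all alternatives).

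Gm14393, Gm14288 and Gm14308 did not pass the test for IFNg/LPS in WT, and their libraries overlapped between the stimuli. Gm14288 had 85.3, 97.0 and 80.1 in M-CSF and 63.5, 75.6 and 90.0 in IFNg/LPS. Gm14308 had 101.4, 111.0 and 97.4 in M-CSF and 53.1, 70.0 and 107.4 in IFNg/LPS, where the third library lay within the M-CSF range and the other two below it. Its limma adjusted p was 0.10, became 0.043 with the library number as a block, which brought the count to 8 of 10, and was 0.014 without WT IFNg/LPS library 3. The same library was the highest of its group for 8 of the 10 members.

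Markers of other cells also changed with IFNg/LPS, in both directions. In WT, 6 of 8 neutrophil markers were lower and 1 higher with IFNg/LPS, and their summed signal was 2130.7 to 3278.5 against 6669.6 to 32169.7 in M-CSF. In p110g-/-, 7 were lower and 1 higher, with sums of 1041.3 to 1914.8 against 10001.7 to 26146.4, and Elane, the neutrophil elastase gene, was at 0 in all IFNg/LPS libraries of both genotypes. Of 5 fibroblast markers 3 were lower and 1 higher in WT, and 4 were lower in p110g-/-. The summed signal of 4 dendritic cell markers was higher, at 644.3 to 1052.5 against 136.2 to 147.2 in WT and at 768.8 to 774.6 against 165.0 to 180.5 in p110g-/-. Of these 4, 2 were called higher and 1 lower in WT, and 2 higher in p110g-/-. Without p110g-/- IFNg/LPS library 1, 3 dendritic cell markers were higher, 4 fibroblast markers were lower and 1 higher, and the neutrophil counts were the same. These counts stand beside 37.5% of all tested genes lower and 36.3% higher in WT, and 36.8% and 36.2% in p110g-/-. The part of other cells in the fall of the members was not tested.

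In p110g-/- macrophages, where the starting levels were lower, 6 of 10 members fell with IFNg/LPS and none rose. Gm14393 is among the 10 but met the filter only through its WT libraries. With 2 to 9 reads in a p110g-/- library, its failure to pass there, with either stimulus, says little. The 6 differences lay between -1.25 and -0.32 on the log2(signal + 1) scale, and over all 10 members the median was -0.50 and the range -1.25 to -0.23. The share of all tested genes that fell was 36.8%, 36.2% rose and 73.0% changed in either direction. Without overlap were 8 members, against 37.9% of all genes tested in this direction. Gm14440 went from 250.6, 338.8 and 307.8 to 112.8, 118.6 and 142.3, a difference of -1.25 ± 0.13 (SE, limma adjusted p = 2.8e-07). Gm14306 went from 21.8, 24.0 and 23.8 to 8.1, 13.3 and 11.7 (-1.03 ± 0.21, adjusted p = 0.00034 by limma). Gm14391 went from 125.3, 135.5 and 127.3 to 62.8, 72.1 and 68.2 (-0.93 ± 0.14, adjusted p = 2.1e-05 by limma). The libraries of these 3 genes did not overlap between the stimuli.

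The calls for Gm14434 (limma adjusted p = 0.029), Gm14308 (0.042) and Gm6710 (just under 0.05) were less secure. Without p110g-/- IFNg/LPS library 1, the library that went against its label, or without p110g-/- M-CSF library 2, only 3 of 10 members passed, Gm14440, Gm14306 and Gm14391. Without the former library their differences were -1.19, -0.84 and -0.87 (adjusted p = 2.7e-06, 0.0023 and 0.00016 by limma). Gm4724 went from 86.5 ± 4.23 to 68.5 ± 5.14 without passing (adjusted p = 0.061 by limma) and 0610010B08Rik from 86.3 ± 17.1 to 73.1 ± 10.7 (0.22). Summed over the 4 near copies, IFNg/LPS left 62.2% of the M-CSF level in WT and 78.0% in p110g-/-. Summed over Gm14440, Gm14288 and Gm14306 it left 59.4% in WT and 44.3% in p110g-/-, and over Gm14391 and Gm6710 71.8% and 66.2%. Without p110g-/- IFNg/LPS library 1 the 3 values of p110g-/- were 83.6%, 46.5% and 68.6%. Whether the response differed between genotypes was not tested, because that difference contains the contrast by which the members were chosen.

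**Figure D3:**
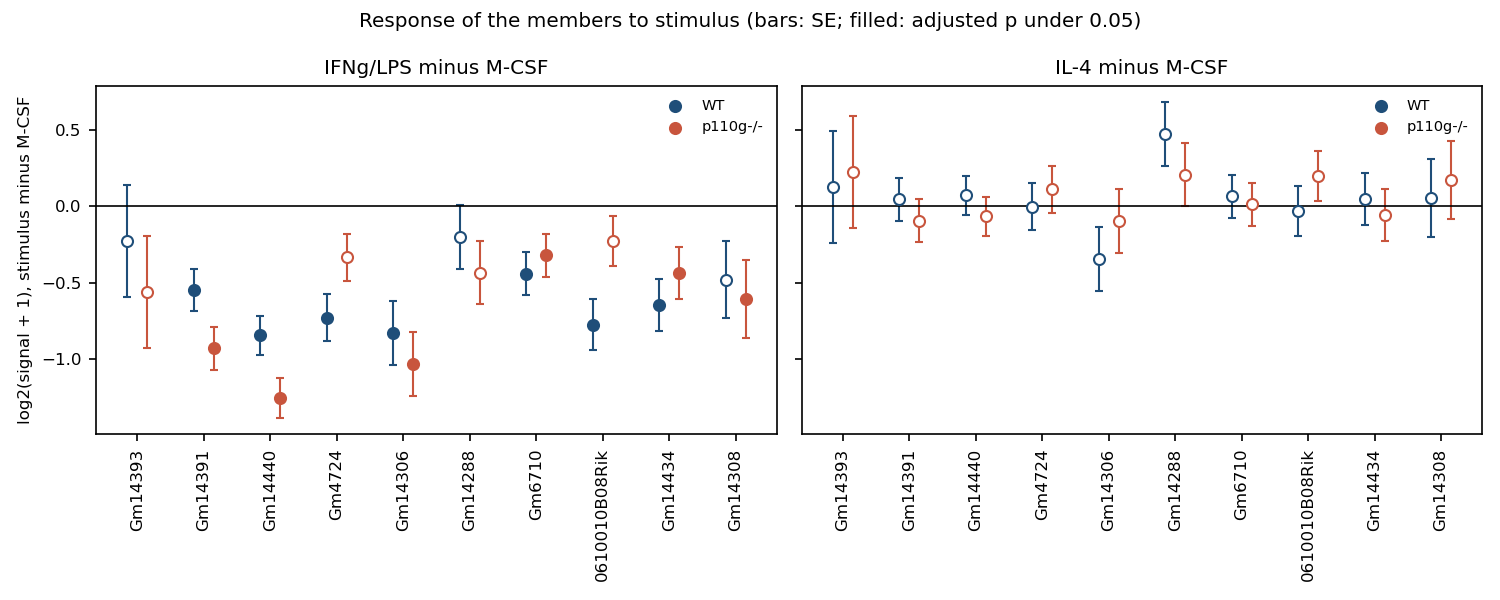
Difference in log2(signal + 1) between a stimulus and M-CSF (vertical axis) for each member in WT (blue) and p110g-/- (red), with bars for the SE of the limma fit and filled points for an adjusted p under 0.05. All points for IFNg/LPS are below 0, from -0.84 to -0.20 in WT and from -1.25 to -0.23 in p110g-/-, whereas those for IL-4 lie on both sides of 0 and are all open.

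IL-4 for 48 h moved no member past the limma test in WT or in p110g-/-, while 43.9% of all genes tested changed in each genotype. One member in WT and none in p110g-/- had an unadjusted p under 0.05. The IL-4 libraries were taken at 48 h and the M-CSF libraries at 24 h, so time and stimulus cannot be told apart here. In WT the median member difference was 0.05, with a range of -0.35 to 0.47, and in p110g-/- it was 0.06, with a range of -0.10 to 0.22. The value of 0.22 is that of Gm14393, which met the filter only through WT. Gm14288 had the largest rise in WT, from 85.3, 97.0 and 80.1 to 109.6, 116.1 and 140.5, with no overlap between the stimuli (0.47 ± 0.21, limma adjusted p = 0.078). It was past the threshold in WT with DESeq2 on recovered reads (adjusted p = 0.038), whereas edgeR called no member, and over all alternatives its adjusted p lay between 0.038 and 0.24. Gm14306 had the lowest difference in WT, with 70.6, 65.5 and 53.9 in IL-4, all below its M-CSF libraries (-0.35 ± 0.21, limma adjusted p = 0.20).

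The genes around the members were then examined for the genotype difference, in the order of the RefSeq gene table. The outermost members span 28 RefSeq genes, of which 15 are in the deposited table, and Pik3cg lies on another chromosome, 12. With 30 genes on each side, 21 further genes were listed and 20 were tested. In each stimulus 10 of these 20 were lower in p110g-/- and none was higher (limma, Benjamini-Hochberg at 0.05), with the same count in IFNg/LPS without p110g-/- library 1. Over all genes tested, 1.27% were lower and 1.06% higher in M-CSF, 7.79% and 6.94% in IFNg/LPS, and 1.99% and 1.34% in IL-4. The neighbours share sequence and possibly reads with the members, so this count is not independent of how the members were chosen.

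The tested neighbours that were called lay among and after the members. Of the 8 tested genes before Gm14393 (Stx16, Npepl1, Gnas, Nelfcd, Ctsz, Tubb1, Atp5e and Slmo2), none was called, with differences between -0.73 and 0.27. Zfp831, the listed gene nearest to Gm14393 on this side, was untested at low signal, with means of 7.0 and 5.8 in M-CSF, 2.37 and 0.63 in IFNg/LPS, and 6.17 and 1.53 in IL-4 in WT and p110g-/-. Slmo2, the nearest tested gene, had M-CSF means of 1380.6 ± 108 in WT and 1365.4 ± 127 in p110g-/- (SD, n = 3). All 7 genes tested after Gm14308 were lower under each stimulus: Gm14305, Gm14295, Gm14405, Gm14419, Gm14410, Gm14420 and Gm14403. In M-CSF, Gm14295 fell from 1105.0 ± 18.1 to 327.6 ± 41.1 (limma adjusted p = 4.1e-08). Gm14403 held 282.5 ± 33.3 and 51.3 ± 5.14 (adjusted p = 1.8e-07 by limma), and Gm14419 held 105.8 ± 7.05 and 13.0 ± 6.05 (1.3e-05).

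Between the members, 5 other genes were tested and 3 were lower under each stimulus. LOC628147 fell most, in M-CSF from 115.8 ± 6.92 in WT to 19.7 ± 1.25 in p110g-/- (limma adjusted p = 1.7e-07). Gm8898 stood at 60.7% and Gm14431 at 60.4% of WT in M-CSF (adjusted p = 0.0043 and 0.00034 by limma). In IFNg/LPS the call for Gm8898 (adjusted p = 0.011, 0.0026 to 0.11 over alternatives, limma) was lost without p110g-/- IFNg/LPS library 2 (0.059) and when only the 6 compared libraries were fitted (0.11). That for Gm14431 was lost in the latter fit (0.065). LOC101055915 and Gm6182 did not pass. Gm6182 had M-CSF means of 1915.1 ± 86.4 in WT and 1764.8 ± 190 in p110g-/- (adjusted p = 0.84 by limma), so a gene without a called difference lay among genes that were lower.

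**Figure D4:**
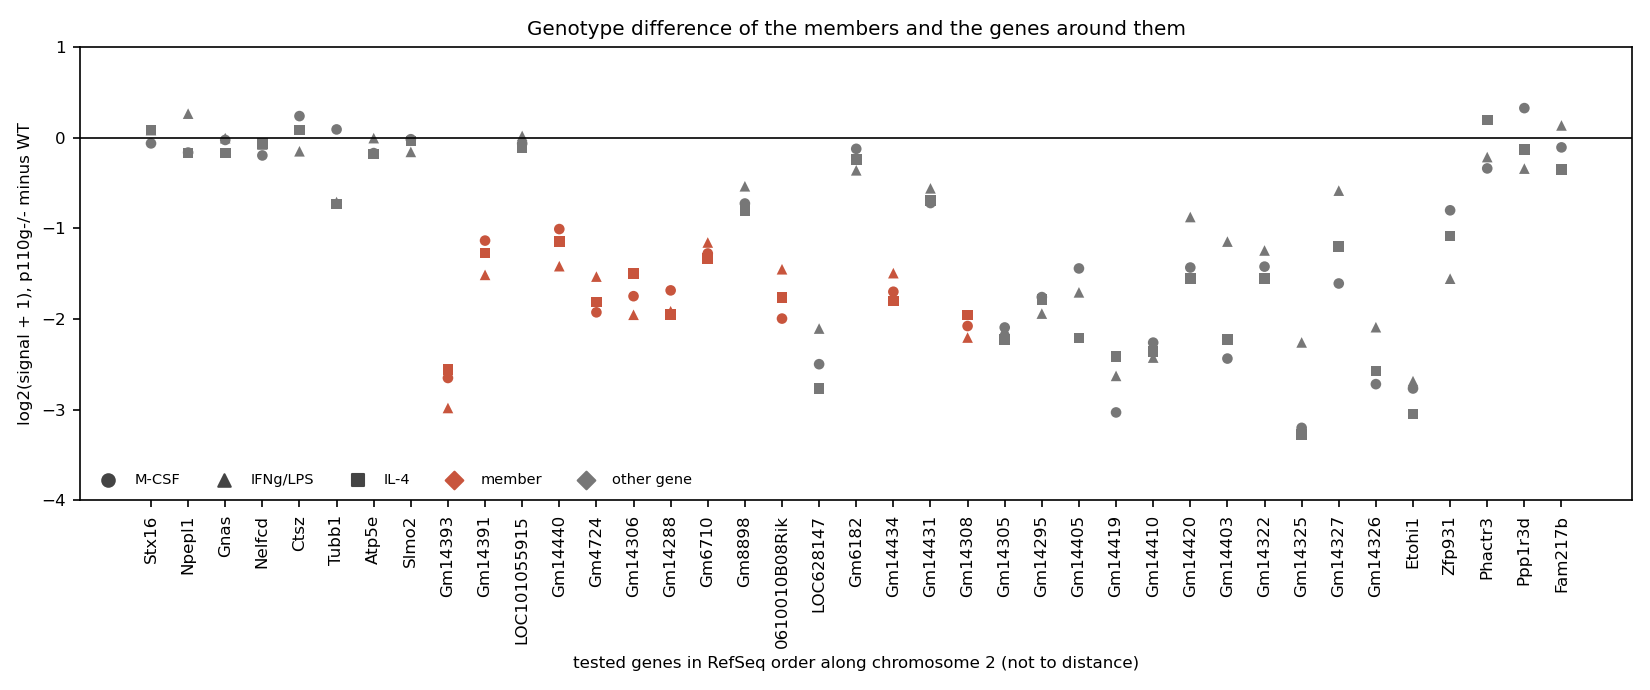
Difference in log2(signal + 1), p110g-/- minus WT (vertical axis), for tested genes in RefSeq order on chromosome 2 (horizontal axis, not to distance), with circles for M-CSF, triangles for IFNg/LPS, squares for IL-4, red for members and grey for other genes. From Stx16 to Slmo2 values lie between -0.73, for Tubb1 at low signal in IL-4, and 0.27, and from Gm14393 to Zfp931 all are below -0.5 apart from LOC101055915 and Gm6182. At Phactr3, Ppp1r3d and Fam217b they lie on both sides of 0.

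The reduced stretch reached further than the genes listed above. Beyond Gm14403, in a listing chosen after the values were seen, Gm14322, Gm14325, Gm14326, Etohi1 (Zfp971 in RefSeq) and Zfp931 were lower in p110g-/- under each stimulus by the same limma test. Gm14327, between them, was at low signal and passed in none. In M-CSF, Etohi1 had signals of 824.3, 885.9 and 840.0 in WT libraries and of 127.6, 129.0 and 115.9 in p110g-/- libraries. Its p110g-/- libraries held 102.3, 95.9 and 125.7 in IFNg/LPS against 662.9, 668.5 and 758.1 in WT. Gm14325 fell to 10.8% of WT in M-CSF (limma adjusted p = 8.3e-11). Phactr3, Ppp1r3d and Fam217b, which follow, did not pass under any stimulus, with adjusted p of 0.83, 0.60 and 0.93 in M-CSF by limma.

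The genes with the shared promoter run were read from the same fit. Of the 30 genes with the 17-base run, 20 are not members, 15 of these are in the table and 14 were tested. All 14 are among the genes around the members described above, so the count holds no further genes. In each stimulus, and in IFNg/LPS also without p110g-/- library 1, 13 of the 14 were lower in p110g-/- and Gm6182 was not. Of all genes tested, 1.27% were lower in M-CSF, 7.79% in IFNg/LPS and 1.99% in IL-4. The median difference of the 14 was -1.93 in M-CSF, -1.75 in IFNg/LPS and -2.01 in IL-4. The genes with the run are also neighbours and copies of each other, so promoter sequence, position and shared reads cannot be told apart in this comparison.

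Of 335 tested genes with a Zfp symbol outside the cluster, 6 were higher and 1 lower in p110g-/- M-CSF, 19 higher and 15 lower in IFNg/LPS, and 6 higher and 0 lower in IL-4 (limma, Benjamini-Hochberg at 0.05). Without p110g-/- IFNg/LPS library 1, 23 were higher and 24 lower in IFNg/LPS. Their median difference was 0.03, -0.004 and 0.08, and 2.34%, 14.7% and 3.33% of all genes tested were called in either direction.

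The genes through which KRAB zinc finger proteins silence chromatin were mostly not called between the genotypes. Of 28 tested genes of this list, 0 passed in M-CSF, 1 was higher and 1 lower in IFNg/LPS, and 0 passed in IL-4. Of all genes tested, 2.34%, 14.7% and 3.33% were called, so the lack of calls in M-CSF and IL-4 is not particular to this list. Trim28 had M-CSF means of 4515.4 ± 317 in WT and 4526.6 ± 163 in p110g-/- (SD, n = 3, limma adjusted p = 0.99). Setdb1 had 3008.1 ± 125 and 3050.4 ± 139 (adjusted p = 0.98 by limma). In IFNg/LPS Atf7ip, a partner of Setdb1, was lower in p110g-/- (-0.43 ± 0.10, SE, limma adjusted p = 0.0074) and Ehmt1, a histone H3 lysine 9 methyltransferase, was higher (0.23 ± 0.07, adjusted p = 0.041). Without p110g-/- IFNg/LPS library 1, Atf7ip still passed (-0.44, adjusted p = 0.014 by limma) and Ehmt1 did not (0.074). With IFNg/LPS against M-CSF, 16 of the 28 fell and 5 rose in WT, and 12 fell and 5 rose in p110g-/- (13 and 6 without p110g-/- IFNg/LPS library 1), beside 73.8% and 73.0% of all genes called. With IL-4, 8 rose and 2 fell in WT, and 9 rose and 2 fell in p110g-/-, beside 43.9% of all genes called in each genotype.

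Genes known to differ between mouse strains in presence or expression were measured beside the cluster, because a targeted allele can carry flanking or unlinked DNA of another strain. Of 23 tested genes of this list, 1 was higher and 3 lower in p110g-/- M-CSF, 2 higher and 6 lower in IFNg/LPS with or without p110g-/- library 1, and 2 higher and 4 lower in IL-4. Of all genes tested 2.34%, 14.7% and 3.33% were called. The list was chosen with results known, and its H60 and Raet1 genes are related ligands. H60a, a ligand of the NKG2D receptor known for its absence of expression in C57BL/6 mice, was at 63.0, 63.8 and 61.7 in the WT libraries of M-CSF and at 3752.0, 3452.3 and 3214.3 in those of p110g-/- (limma adjusted p = 3.3e-15). It was also higher in IFNg/LPS (adjusted p = 3e-13, and 8.2e-12 without p110g-/- library 1) and IL-4 (6.3e-15), and the p110g-/- libraries were far above all WT libraries. The related ligand genes Raet1d and Raet1e were lower under each stimulus, at 12.5 ± 3.52 and 15.4 ± 2.53 in p110g-/- M-CSF against 58.7 ± 14.5 and 86.2 ± 38.0 in WT M-CSF (adjusted p = 0.00062 and 0.0045 by limma). Erdr1 was lower as well, at 258.8 ± 82.5 against 1718.3 ± 155 in M-CSF (adjusted p = 0.00014 by limma).

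Nnt, a mitochondrial transhydrogenase that is mutated in the C57BL/6J substrain, varied within WT. Its WT signals were 1206.1, 2766.1 and 1208.0 in M-CSF, 438.5, 685.3 and 371.1 in IFNg/LPS, and 887.8, 1958.3 and 1090.4 in IL-4, so library 2 was the highest WT library under each stimulus. In p110g-/- it held 2869.1, 3488.4 and 3307.4 in M-CSF, 800.2, 799.2 and 820.5 in IFNg/LPS, and 2171.0, 3186.1 and 3014.9 in IL-4. Each p110g-/- library was thus above every WT library of its stimulus. The log2 differences were 1.01, 0.74 and 1.15, and none passed the limma test for genotype (adjusted p = 0.14, 0.13 and 0.065). Without p110g-/- IFNg/LPS library 1 the difference in IFNg/LPS was 0.75 (adjusted p = 0.19 by limma). The summed signal of the members in WT M-CSF was 2366.9, 2602.8 and 2566.5, so library 2 was also the highest there, by a small margin. The WT sums were 1398.0, 1583.4 and 1849.2 in IFNg/LPS and 2367.2, 2596.8 and 2836.6 in IL-4. Library 3 was thus the highest under these stimuli. The order of the WT libraries is a description, and its relation to strain was not tested. Whether strain DNA or shared reads have a part in the low level of the cluster was not tested.

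Among markers of other cells, 1 of 5 fibroblast markers was higher in p110g-/- M-CSF, where their summed signal was 1570.4 to 3556.5 against 370.1 to 2420.5 in WT, and none was at 0 in a whole group. The median difference of the 5 fibroblast markers was 1.52 in M-CSF, 0.83 in IFNg/LPS and 1.32 in IL-4. None of 8 neutrophil, 4 B cell, 4 T cell or 4 dendritic cell markers tested was called for genotype in M-CSF, beside 2.34% of all genes. In IFNg/LPS 1 of 4 T cell markers was lower, and 0 without p110g-/- library 1. In IL-4 1 of 2 tested mast cell markers was lower, beside 3.33% of all genes called. In IFNg/LPS, 5 of 10 macrophage markers were lower and 2 higher in p110g-/-, with a summed signal of 597317.4 to 696577.2 against 660750.3 to 715913.3 in WT and 14.7% of all genes called. Without p110g-/- IFNg/LPS library 1, 4 were lower and 2 higher. The part of other cells in the member differences was not tested.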

How the data were processed

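RNA sequencing of 18 libraries was read from 1 table. The authors deposited a normalised signal for each gene and library, made by scaling counted reads with a single factor for each library, as judged from the deposited values: every value was a whole multiple of a library's step within 0.1, so whole reads were recovered for 100% of values. The submitters' processing notes name CASAVA 1.8.2, Bowtie2, DESeq and mm9, and the counting method is not given in the sources used here. Log2(signal + 1) was fitted with limma 3.58.1 in R 4.3.3 as 6 group means over 18 libraries (trend and robust). Genes needed 3 or more libraries at a value of 10 or higher, which left 15627, with Benjamini-Hochberg adjustment per comparison at 0.05. The script was tested on simulated data. Alternatives were other pseudocounts, filters and scaling, edgeR 4.0.16 and DESeq2 1.42.0 on recovered reads, fewer libraries and a block for library number. The main tests treat the libraries as unpaired, and the block for library number was an alternative only. A check on the data counted numbers as pairs where every same-number correlation exceeded 0.1. This held for IFNg/LPS in WT (0.256, 0.191 and 0.162), IL-4 in both genotypes and the genotype difference in IFNg/LPS, from the data only. RefSeq GRCm38.p6 gave gene order and promoters (15543 of 16474 IDs matched), and 50-base stretches came from GENCODE transcripts. Named genes were the members, Pik3cg, genes between the outermost members, the 6 nearest tested on each side, the 10 most and 5 least alike profiles, and list genes past the test. Members and lists were chosen with earlier results of these data known.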

Additional observations from a re-analysis of the deposited data

How the results depend on the processing

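Of 119 alternative counts of members or neighbours, 112 stayed within 1.5 times the count reported, and of 712 alternative values for single genes, 666 kept direction and side of the threshold, 29 lost a call, 9 gained one and 8 changed sign. In p110g-/- the count of members lowered by IFNg/LPS, 6, was 3 with DESeq2, 3 in a fit of the 6 libraries alone, and 3 with libraries 2 and 3 only. Leaving out 1 library in turn gave 3 to 6, with 3 without p110g-/- IFNg/LPS library 1 or p110g-/- M-CSF library 2. For IL-4 in WT the count was 1, Gm14288, with DESeq2 and in the 6 libraries alone, and 0 to 0 on leaving out 1 library, as in p110g-/-. The IFNg/LPS count in WT ranged over 6 to 8 and the neighbour counts over 9 to 10 in IFNg/LPS and 10 to 10 in M-CSF and IL-4 when 1 library was left out. Changes of sign, all in differences that did not pass, were Gm14393 for IFNg/LPS in WT without WT IFNg/LPS library 2 (0.04, with -0.572 to 0.04 on leaving out 1 library), Gm14306 for IL-4 in p110g-/- without p110g-/- IL-4 library 3 (0.1, with -0.23 to 0.1), and LOC101055915 for genotype in IFNg/LPS. The last was 0.02 and became -0.023 with edgeR, -0.031 with DESeq2, -0.122 with libraries 2 and 3 only, and -0.313 to 0.248 on leaving out 1 library. The cause of these changes was not tested. With the library number as a block, 8 members fell with IFNg/LPS in WT and 7 in p110g-/-, where the numbers do not pair the libraries by the check used, 0 passed for IL-4, and 10 neighbours were lower under each stimulus. Pik3cg was -0.34 in IFNg/LPS (adjusted p = 0.37 by limma), and -0.71 (0.007) without p110g-/- library 1. No scaling moved the median of all genes by over 0.1.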

Other observations

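Genes with the profile most like the members were ranked by Pearson correlation over 18 libraries between log2(signal + 1) and the mean standardised profile of the 10 members, as a description. The libraries fall into high (WT) and low (p110g-/-) levels of the members, so the correlation largely follows that difference. The 10 highest were Gm4631 (0.989), LOC101055762 (0.986), Fam103a1 and Gm14432 (both 0.982), Gm14410 (0.98), Gm14305 and Sfxn2 (both 0.979), Gm11007 (0.977), Gm14399 (0.976) and Gm14430 (0.975). Of these, Gm4631, Gm14410 and Gm14305 are placed on chromosome 2 in the RefSeq table, Fam103a1 on chromosome 7 and Sfxn2, a mitochondrial sideroflexin, on chromosome 19, and the others have no placement there. The 5 lowest were Ocel1 (-0.967), LOC631286 (-0.964), H60a (-0.932), Zfp868 (-0.929) and Mef2b (-0.926), of which Ocel1, Zfp868 and Mef2b lie on chromosome 8.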
